A study of Mus musculus with 10 samples.

Results

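The SLC22 family of organic anion and cation transporters was described in the kidney cortex of diabetic db/db mice and of their db/m littermates. The 9 genes were chosen by symbol, through the Entrez Gene ID of each array value: Slc22a2, Slc22a4, Slc22a5, Slc22a6, Slc22a7, Slc22a8, Slc22a12, Slc22a13 and Slc22a19. All 9 had a value, among 16475 genes measured. The db/db group held 5 diabetic mice on the BKS background, in which both copies of the leptin receptor gene Lepr carry the db mutation in every cell of the body. The 5 db/m mice were littermates on the same background that had no diabetes, in which, by the usual meaning of the name, 1 copy is mutant. All mice were 24 weeks old, no treatment was recorded, and the sex of the mice was not given in the sources used here. Glomeruli had been removed from the cortex, and the RNA of every mouse was hybridised to its own Affymetrix mouse array.

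SLC22 proteins sit in the plasma membrane and carry small charged molecules. In the proximal tubule, which secretes drugs, toxins and metabolic waste into the urine, some members take organic anions or cations up from the blood side, often in exchange for dicarboxylates held inside the cell. Others sit on the brush border facing the urine and take back urate, carnitine or nicotinate. Pumps and exchangers of other families complete the route from blood to urine.

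Of the 9 genes 3 passed the test, and all 3 were lower in db/db cortex: Slc22a7, Slc22a19 and Slc22a2. The test was limma on log2 values, two-sided, with p-values adjusted by Benjamini-Hochberg over all 16475 genes and a threshold of 0.05. Over all genes 6.51% passed it, 2.96% higher and 3.54% lower in db/db. These shares are the background for every later count by this test with all 10 arrays. No SLC22 gene of the 9 rose by limma, and at an unadjusted p under 0.05 the counts were 0 higher and 4 lower. Of all genes 21.5% passed at that unadjusted threshold, 9.43% higher and 12.1% lower, which is the background for every unadjusted count given here. The median change of the 9 was -0.28 on the log2 scale, against -0.03 over all genes. In 4 of the 9 the db/db and db/m arrays did not overlap, against 10.2% of all genes. The 9 were chosen with earlier results of these data known, so these counts are descriptions.

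The array of db/db mouse 1 stood apart from the other 9. Its Pearson r with them, across genes, was 0.938 to 0.962, while the others correlated with each other at 0.985 or more. Of the 9 SLC22 genes 5, a count not set against all genes, had their lowest value of all 10 arrays in this mouse. Genes of tubular injury and of leukocytes were high in it: the mean of 6 injury markers stood 4.72 log2 units above the db/m mean, against 0.25 to 1.72 in the other db/db mice and -0.45 to 0.91 in db/m mice. For 5 leukocyte markers the deviation was 2.72 in db/db 1, against -0.71 to 0.40 in the other db/db mice and -0.07 to 0.06 in db/m mice. The part of these cells and of injury in the results was not tested, and results that change without db/db 1 are given both ways. Without it 5 SLC22 genes passed, 1 higher (Slc22a8) and 4 lower (Slc22a12 in addition to the 3 above). The background without it, here and for later counts, was 12.8% of genes in either direction, 6.84% higher and 5.93% lower. The groups then did not overlap for 5 of the 9 genes, against 15.4% of all genes.

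The start regions of 4 members are shown: Slc22a19 and Slc22a2, which fell, and the direct neighbours Slc22a8 and Slc22a6, neither of which passed with all 10 arrays and of which Slc22a8 passed without db/db 1. The changes of the neighbours were not tested against each other. The sequences are RefSeq's, build GRCm38.p6, each 300 bases long from 250 bases before the annotated start to 50 after it, read in the direction of the gene. Of the 9 genes 8 matched an entry, and Slc22a7 is named only. Slc22a19 lies at chr19:7711261-7711560 on the minus strand, Slc22a8 at chr19:8592932-8593231 on the plus strand, Slc22a6 at chr19:8617746-8618045 on the plus strand and Slc22a2 at chr17:12583939-12584238 on the plus strand. Capitals mark matches to any of 4 motifs searched on both strands.
Slc22a19: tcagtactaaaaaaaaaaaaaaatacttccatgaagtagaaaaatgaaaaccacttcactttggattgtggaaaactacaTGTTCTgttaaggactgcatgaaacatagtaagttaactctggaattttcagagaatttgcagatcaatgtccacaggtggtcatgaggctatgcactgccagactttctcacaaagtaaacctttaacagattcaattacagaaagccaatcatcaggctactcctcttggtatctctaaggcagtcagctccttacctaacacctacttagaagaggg
Slc22a8: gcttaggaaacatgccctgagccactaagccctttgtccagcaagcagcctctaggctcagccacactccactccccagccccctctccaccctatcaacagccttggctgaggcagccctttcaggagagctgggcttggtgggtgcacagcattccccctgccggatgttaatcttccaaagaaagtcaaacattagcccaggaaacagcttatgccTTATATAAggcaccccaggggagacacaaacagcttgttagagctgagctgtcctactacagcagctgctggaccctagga
Slc22a6: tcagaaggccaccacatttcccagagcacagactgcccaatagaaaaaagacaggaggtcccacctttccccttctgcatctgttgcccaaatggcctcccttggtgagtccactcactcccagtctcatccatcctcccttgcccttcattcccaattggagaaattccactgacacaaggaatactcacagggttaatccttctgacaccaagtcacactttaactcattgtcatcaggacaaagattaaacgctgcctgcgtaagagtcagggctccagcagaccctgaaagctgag
Slc22a2: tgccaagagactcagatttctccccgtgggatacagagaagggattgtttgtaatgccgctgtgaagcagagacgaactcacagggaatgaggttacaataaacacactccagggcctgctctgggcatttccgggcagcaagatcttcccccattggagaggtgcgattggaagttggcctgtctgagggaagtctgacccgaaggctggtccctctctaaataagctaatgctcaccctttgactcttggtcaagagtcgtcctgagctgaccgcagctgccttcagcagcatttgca
The motifs were the nuclear receptor half-site AGGTCA, found in 16.3% of 32851 mouse promoters of this length, the HNF4 site CAAAGTCCA, in 0.475%, the steroid receptor half-site AGAACA, in 19% of them, and the TATA box core TATAA, in 24.9%. In Slc22a8 the TATA core was read on both strands in overlapping letters, from 28 and 31 bases before the start. In Slc22a19 the steroid receptor half-site was read on the opposite strand, 170 bases before the start. The windows of Slc22a6 and Slc22a2 held none of these letters. Of the 8 windows 3 held a match, the third being that of Slc22a13, with the TATA core on the opposite strand at its start. The motifs were chosen with these sequences at hand, and a match is a description of the letters alone.

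Among the organic anion transporters Slc22a7 fell, and Slc22a6 and Slc22a8 did not pass with all 10 arrays. Slc22a7 encodes Oat2, which carries cyclic nucleotides, prostaglandins and other anions and is known in rat kidney from the straight proximal tubule. It had log2 values of 6.77, 8.39, 6.27, 6.62 and 7.62 in db/db mice 1 to 5, against 12.50, 11.58, 12.19, 12.82 and 12.41 in db/m mice 1 to 5. Every db/db mouse lay below every db/m mouse by a wide margin, and mouse 2 was the highest of the db/db group. The means were 7.13 ± 0.86 in db/db and 12.30 ± 0.46 in db/m (SD, n = 5 each). The change of -5.17 (SE 0.39, 35.9-fold lower, limma adjusted p = 0.000232) was the most negative of all 16475 genes with all 10 arrays. Leaving out db/db 1 gave -5.08 (SE 0.41, 33.7-fold lower, limma adjusted p = 0.000217), and it passed in all 10 fits that left out 1 array. In whole tissue, fewer cells of a type and less RNA per cell cannot be told apart.

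The gene directly before Slc22a7 on chromosome 17, Crip3, had a change of -0.63 (limma adjusted p = 0.0775), and the one after it, Ttbk1, a change of -1.06 (limma adjusted p = 0.0101).

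Slc22a6 and Slc22a8 encode Oat1 and Oat3, the main uptake routes for organic anions from blood into proximal tubule cells. Slc22a6 was 13.29, 13.60, 13.54, 13.61 and 13.52 in db/db mice 1 to 5, against 13.55, 13.50, 13.70, 13.86 and 13.73 in db/m mice. The groups overlapped, at means of 13.51 ± 0.13 in db/db and 13.67 ± 0.14 in db/m (SD, n = 5 each). The difference of -0.15 did not pass (SE 0.09, 95% interval -0.36 to 0.05, limma adjusted p = 0.372), nor did -0.10 without db/db 1 (limma adjusted p = 0.502).

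Slc22a8 was 9.99, 12.09, 12.41, 12.19 and 12.05 in db/db mice 1 to 5, against 11.44, 11.33, 11.30, 11.12 and 11.55 in db/m mice. In db/db mice 2 to 5 it lay above every db/m mouse, and in db/db 1 it lay below every db/m mouse. With all 10 arrays the means were 11.74 ± 0.99 in db/db and 11.35 ± 0.16 in db/m (SD, n = 5 each), and the difference of 0.40 did not pass (SE 0.40, 95% interval -0.50 to 1.29, limma adjusted p = 0.617). Without db/db 1 the db/db mean was 12.18 ± 0.16 (SD, n = 4). The change was then 0.83 (SE 0.10, 95% interval 0.60 to 1.07, 1.78-fold higher, limma adjusted p = 0.00119). It also passed with all 10 arrays when limma weighted each array by its quality, at 0.80 (adjusted p = 0.00562). The weights were estimated from these same values, so this is no independent check. In that setting 2641 of all genes passed, against 1072 without weights. The low value of db/db 1 stood in the array with the high injury and leukocyte markers.

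**Figure D1:**
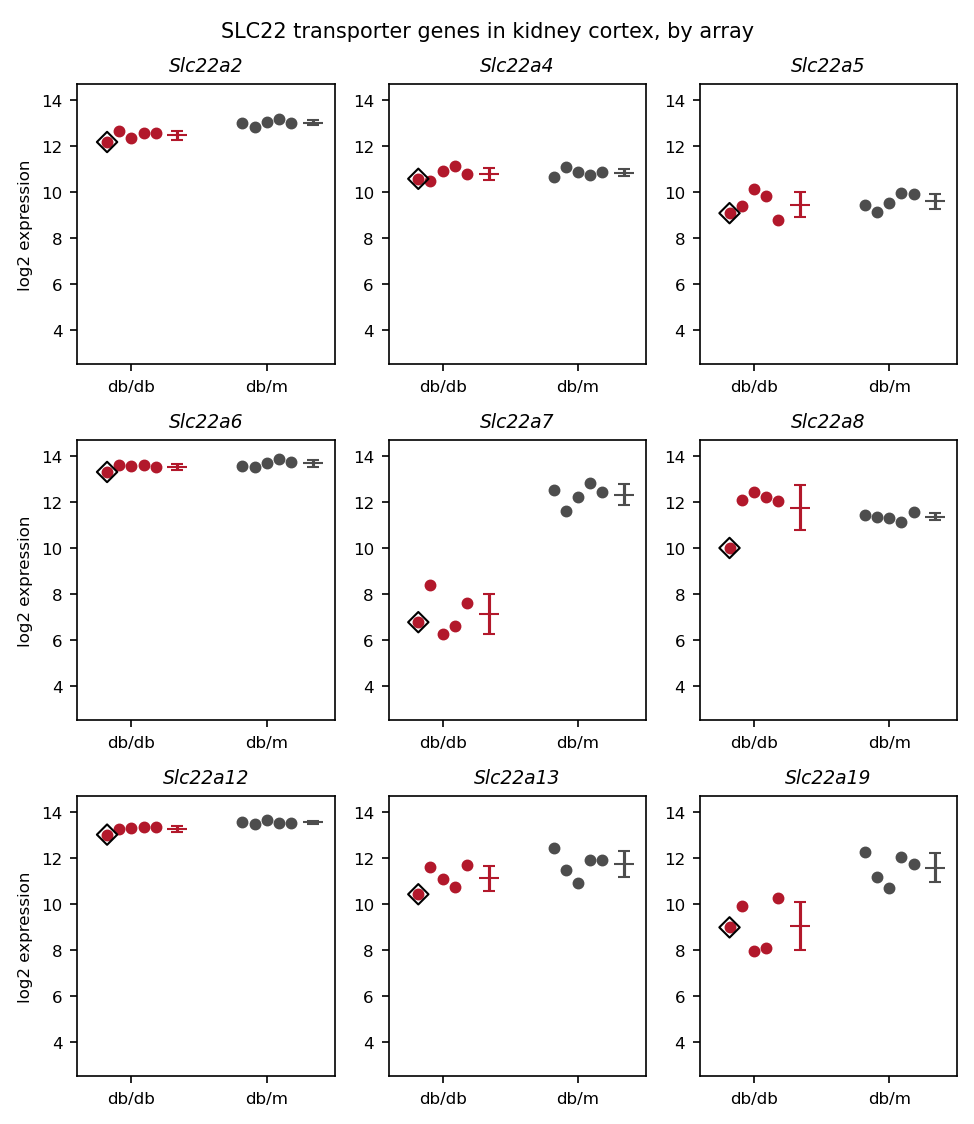
Log2 level of each of the 9 SLC22 genes in the 5 db/db and the 5 db/m mice, with db/db left of db/m in each panel, points for mice, bars for the mean ± SD and a black diamond around db/db 1. For Slc22a7 the db/db mice lie between 6.27 and 8.39, all below the db/m mice at 11.58 to 12.82, while for Slc22a8 db/db 1 lies below and the other 4 db/db mice above all db/m mice.

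Among the transporters of the brush border, the side that faces the urine, Slc22a19 fell. It encodes Oat5, which carries sulphated steroids and is known from the straight proximal tubule of rodents. Its log2 values were 8.97, 9.88, 7.94, 8.09 and 10.27 in db/db mice 1 to 5, against 12.25, 11.15, 10.69, 12.04 and 11.71 in db/m mice. The groups did not overlap, and the highest db/db mouse, number 5, lay nearest to the lowest db/m mouse, number 3. The means were 9.03 ± 1.04 in db/db and 11.57 ± 0.65 in db/m (SD, n = 5 each). The change was -2.54 (SE 0.49, 5.81-fold lower, limma adjusted p = 0.0152), and 10 of all genes fell by more. Leaving out db/db 1 gave -2.52 (SE 0.53, limma adjusted p = 0.0133), and it passed in all 10 fits that left out 1 array, with an adjusted p of at most 0.0436.

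Slc22a12 encodes Urat1, the urate reabsorber of the brush border. It was 13.00, 13.26, 13.30, 13.34 and 13.34 in db/db mice 1 to 5, against 13.54, 13.47, 13.62, 13.52 and 13.50 in db/m mice. All db/db mice lay below all db/m mice by a small margin, at means of 13.25 ± 0.14 in db/db and 13.53 ± 0.06 in db/m (SD, n = 5 each). The difference of -0.28 (SE 0.08, 95% interval -0.46 to -0.11) did not pass with all 10 arrays, at a limma adjusted p of 0.0612. It was -0.22 without db/db 1 (SE 0.06, 1.17-fold lower) and passed (limma adjusted p = 0.0307). Over all alternatives its adjusted p ran from 0.0135 to 0.16.

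Slc22a13 encodes Oat10, an exchanger of nicotinate and urate. It was 10.41, 11.58, 11.09, 10.74 and 11.69 in db/db mice 1 to 5, against 12.43, 11.45, 10.90, 11.89 and 11.89 in db/m mice. The groups overlapped, at means of 11.10 ± 0.54 in db/db and 11.71 ± 0.57 in db/m (SD, n = 5 each). The difference of -0.61 did not pass (SE 0.32, 95% interval -1.31 to 0.09, limma adjusted p = 0.297), nor did -0.44 without db/db 1 (limma adjusted p = 0.404).

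Within the db/db group, mice 2 and 5 had the highest values of Slc22a7, Slc22a13 and Slc22a19. Within the db/m group mouse 1 was highest and mouse 3 lowest for Slc22a13 and Slc22a19, whereas Slc22a7 was highest in mouse 4 and lowest in mouse 2. These orders are descriptions over 5 mice each.

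Slc22a2 encodes Oct2, which takes organic cations such as creatinine and metformin up from the blood. It was 12.16, 12.66, 12.34, 12.57 and 12.53 in db/db mice 1 to 5, against 12.99, 12.83, 13.01, 13.15 and 12.99 in db/m mice. The groups did not overlap, at means of 12.45 ± 0.20 in db/db and 12.99 ± 0.11 in db/m (SD, n = 5 each). The change was -0.54 (SE 0.10, 1.46-fold lower, limma adjusted p = 0.0147), and -0.47 without db/db 1 (SE 0.09, 1.39-fold lower, limma adjusted p = 0.00664). It passed in all 10 fits that left out 1 array, with an adjusted p of at most 0.0452.

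The zwitterion and carnitine transporter genes did not pass. Slc22a4 encodes Octn1, the ergothioneine transporter, and was 10.56, 10.46, 10.90, 11.13 and 10.77 in db/db mice 1 to 5, against 10.64, 11.08, 10.84, 10.75 and 10.86 in db/m mice. The db/m range lay inside the db/db range, at means of 10.76 ± 0.27 in db/db and 10.83 ± 0.16 in db/m (SD, n = 5 each). The difference was -0.07 (SE 0.13, 95% interval -0.37 to 0.23, limma adjusted p = 0.809).

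Slc22a5 encodes Octn2, which reabsorbs carnitine, the carrier of fatty acids into mitochondria. It was 9.07, 9.36, 10.12, 9.83 and 8.77 in db/db mice 1 to 5, against 9.41, 9.13, 9.52, 9.93 and 9.90 in db/m mice. The db/db mice held both the highest and the lowest value, at means of 9.43 ± 0.55 in db/db and 9.58 ± 0.34 in db/m (SD, n = 5 each). The difference was -0.15 (SE 0.26, 95% interval -0.73 to 0.43, limma adjusted p = 0.786). The intervals of both genes leave room for a change in either direction, and their sign turned under some settings given with the processing alternatives.

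**Figure D2:**
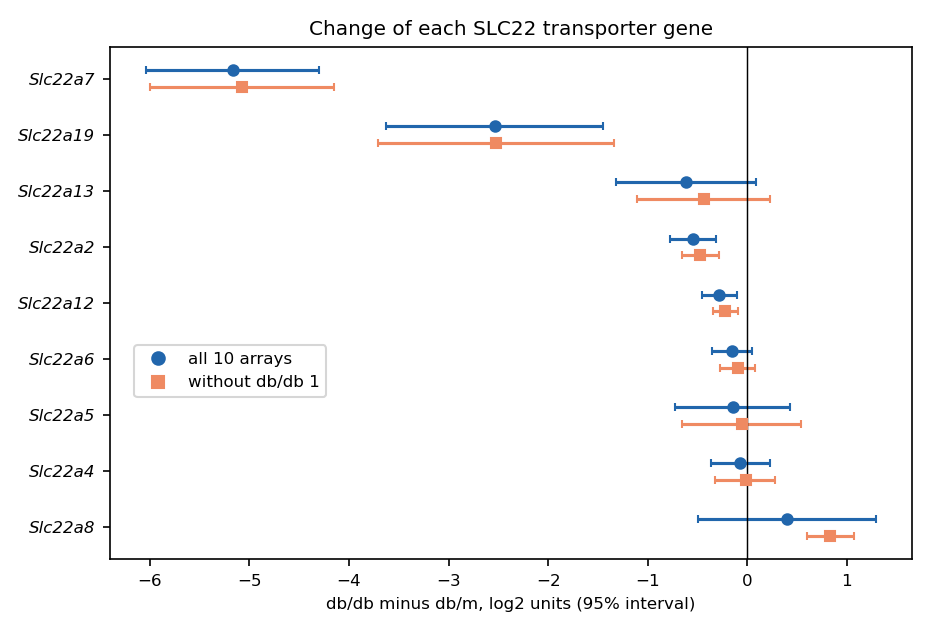
Difference in log2 level (db/db minus db/m) of each SLC22 gene, with 95% intervals, as circles for all 10 arrays and squares without db/db 1. Slc22a7 at -5.17 and Slc22a19 at -2.54 lie far below 0, and Slc22a8 moves to 0.83 with a narrow interval once db/db 1 is left out.

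The spread within groups differed from gene to gene. The SD was larger in db/db than in db/m for 7 of the 9 genes, against 73.6% of all genes, and for 6 of 9 without db/db 1, against 50.4% of all genes. The range within a group averaged 1.26 log2 units over the 9 genes in db/db, 0.92 in db/db without db/db 1, and 0.76 in db/m. For Slc22a8 the db/db range was 2.42 with db/db 1 and 0.36 without it, against 0.43 in db/m. For Slc22a19 it was 2.32 in db/db with or without db/db 1, against 1.57 in db/m. None of the 9 genes lay in the lowest 25% of genes by mean level. Slc22a6 and Slc22a12 lay near the top of the scale, and whether array signals were compressed there was not tested.

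**Figure D3:**
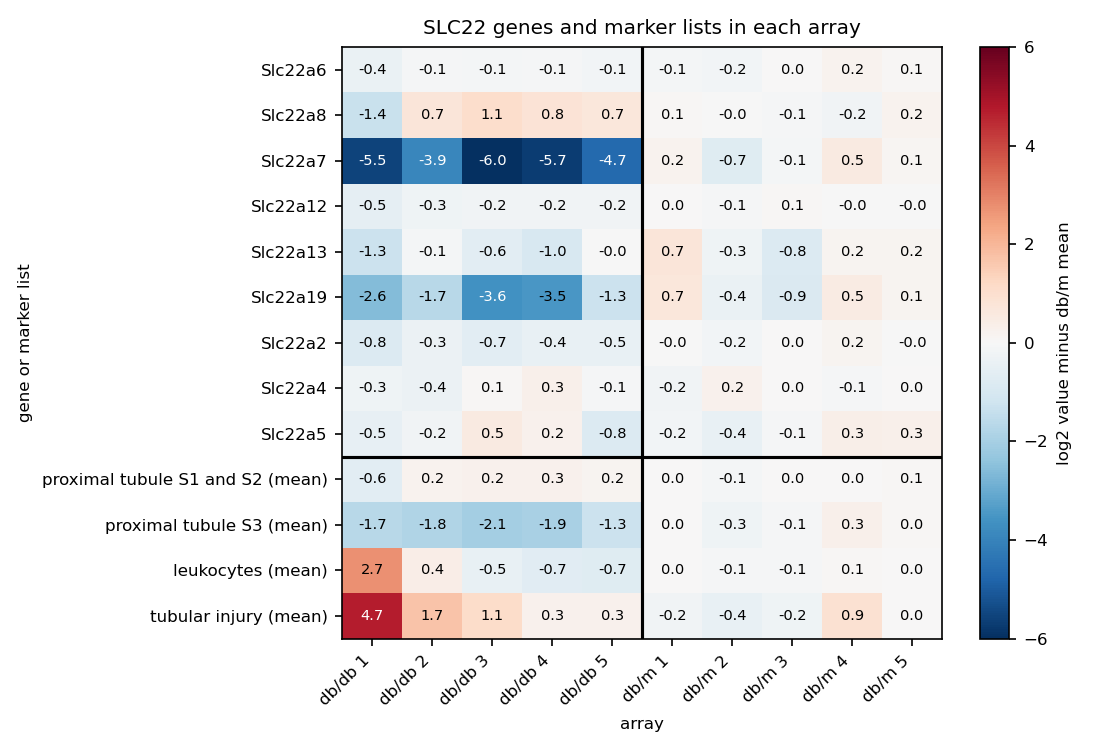
Heat map of the 9 SLC22 genes in the 10 mice, each value as log2 level minus the gene's db/m mean, with db/db mice left of db/m mice. Rows below the black line are means of such values over marker lists. The lists are those of the first and second proximal segments (S1 and S2), the last proximal segment (S3), leukocytes and tubular injury. Slc22a7 and Slc22a19 are low in all 5 db/db mice, and Slc22a8 is low in db/db 1 and above the db/m mean in the other 4 db/db mice.

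Likeness of profile was taken as the root mean square difference of values over the 10 arrays, after subtracting each gene's db/m mean. With SLC22 genes and unnamed genes left out, it gave the nearest genes to each of the 3 that fell. For Slc22a7 these were Slco1a1, an organic anion transporter gene of another family (0.88 log2 units), Alox15, a lipoxygenase gene (1.05), and Neurog2, a transcription factor gene (1.18). For Slc22a19 they were C8a, a complement component gene (0.38), Mep1b, which encodes a brush border metalloprotease (0.50), and Pzp, which encodes a protease inhibitor (0.56). For Slc22a2 they were Dusp19 (0.06), Prps1l3 (0.08) and Arpp19 (0.08). Their own changes were -0.48, -0.50 and -0.52, beside the -0.54 of Slc22a2. A choice by this distance makes such changes alike. Slco1a1, Alox15 and Neurog2 changed by -4.71, -3.99 and -3.745, beside the -5.17 of Slc22a7. The call of Arpp19 was lost without db/m 3 or 4 (limma adjusted p up to 0.0567). These distances describe likeness over these arrays alone.

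Of 16 further SLC22 genes listed, 10 were measured. Of these 1 fell and 0 rose by limma with all 10 arrays, with a median change of -0.12, and at an unadjusted p under 0.05 the counts were 2 higher and 2 lower. Slc22a17, which encodes a receptor for lipocalin 2, averaged 8.60 ± 0.46 in db/db and 9.50 ± 0.21 in db/m (SD, n = 5 each). Its change was -0.90 (SE 0.21, 1.87-fold lower, limma adjusted p = 0.0318), and -0.70 without db/db 1 (limma adjusted p = 0.00363). This call held in 4 of the 10 fits that left out 1 array, and was lost without db/db 3 or 4 or without db/m 1, 2, 3 or 5, where the adjusted p reached 0.0818. Leaving out db/db 1 gave 2 genes of the list higher and 2 lower, with a median of 0.03.

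The following genes of the family were chosen after their values were seen. Slc22a26, the neighbour of Slc22a19 on chromosome 19, was 8.59, 6.32, 6.30, 6.04 and 6.68 in db/db mice 1 to 5, against 9.44, 8.05, 7.49, 8.84 and 8.99 in db/m mice. In db/db mice 2 to 5 it lay below all db/m mice, and in db/db 1 it lay within the db/m range. The difference of -1.77 did not pass with all arrays (SE 0.52, limma adjusted p = 0.0716), and without db/db 1 it was -2.23 (SE 0.35, limma adjusted p = 0.00381). Slc22a29 was 9.38, 12.42, 12.17, 12.14 and 11.73 in db/db mice 1 to 5, against 11.12, 10.82, 10.16, 10.09 and 10.41 in db/m mice. As for Slc22a8, db/db 1 lay below all db/m mice and the other db/db mice above them. The difference was 1.05 with all arrays (SE 0.53, limma adjusted p = 0.283) and 1.60 without db/db 1 (SE 0.22, limma adjusted p = 0.00206). The dim gene Slc22a27 had a difference of 0.37 (limma adjusted p = 0.154), and 0.46 without db/db 1 (limma adjusted p = 0.0309). Slc22a19, Slc22a26, Slc22a27 and Slc22a29 belong to a group of closely related genes in the mouse, and whether their probes share transcripts was not tested, so their separate values are uncertain.

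**Figure D4:**
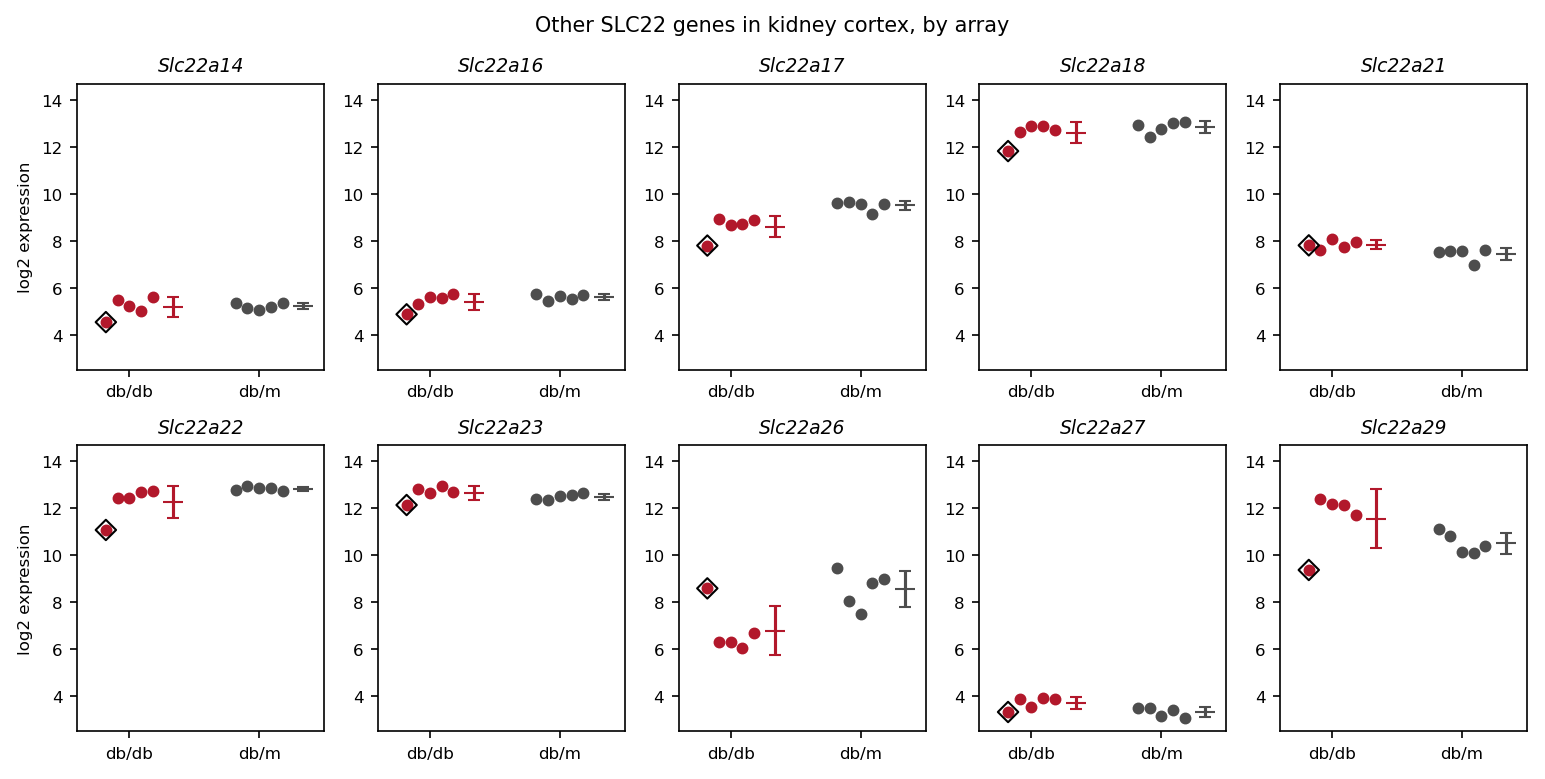
Log2 levels of the 10 further SLC22 genes in the 5 db/db and the 5 db/m mice, with db/db left of db/m, points for mice, bars for the mean ± SD and a black diamond around db/db 1. Slc22a17 averages 8.60 in db/db and 9.50 in db/m, and for Slc22a26 and Slc22a29 db/db 1 lies away from the other 4 db/db mice.

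The neighbours Slc22a4 and Slc22a5 on chromosome 11 flank Slc22a21, which had a difference of 0.39 that did not pass (limma adjusted p = 0.123). Slc22a14, next to Slc22a13 on chromosome 9, had a difference of -0.04 that turned to 0.12 without db/db 1 and did not pass in either fit (limma adjusted p = 0.916 with all arrays).

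Organic anion transporters of the SLCO family, which move bile acids, steroid conjugates and thyroid hormones, were described beside them. Of 11 measured, 3 fell and 0 rose by limma, beside 3.54% lower and 2.96% higher over all genes. The median change of the list was -0.06, and at an unadjusted p under 0.05 its counts were 2 higher and 3 lower. Slco1a1 was 8.75, 7.43, 6.81, 7.41 and 9.52 in db/db mice 1 to 5, against 12.29, 12.59, 12.88, 13.04 and 12.68 in db/m mice. The groups lay far apart, as for Slc22a7. Its change was -4.71 (SE 0.46, limma adjusted p = 0.00051), that of Slco1a4 was -1.88 (SE 0.22, limma adjusted p = 0.00156) and that of Slco3a1 -0.57 (SE 0.10, limma adjusted p = 0.0105). Slco1a4 was dim in db/db, where only 16.6% of genes had a lower mean. The same list had 1 gene higher and 3 lower without db/db 1.

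The partners that complete the route of organic ions are exit pumps, exchangers, dicarboxylate carriers and scaffold proteins. Of 13 measured, 2 rose and 1 fell by limma, with a median of 0.01. Abcc4, which encodes the anion exit pump Mrp4 of the brush border, was 12.34, 11.76, 12.25, 12.12 and 11.95 in db/db mice 1 to 5, against 10.89, 10.56, 10.55, 10.63 and 10.75 in db/m mice. Every db/db mouse lay above every db/m mouse, and the change was 1.41 (SE 0.12, limma adjusted p = 0.000357). Abcb1a, which encodes a P-glycoprotein drug pump, rose by 1.42 (SE 0.25, limma adjusted p = 0.0108). Slc17a3, an apical anion and urate exit transporter gene, changed by -0.44 (SE 0.07, limma adjusted p = 0.00621). Other partners on the route of the members did not pass and were chosen after their values were seen: Slc13a3, the blood-side dicarboxylate carrier gene, at 0.01 with all arrays, a sign that turned with arrays centred on their medians (limma adjusted p = 0.949), Slc47a1, which encodes the cation exit transporter Mate1, at -0.22 (limma adjusted p = 0.298), and the scaffold gene Pdzk1 at -0.15 (limma adjusted p = 0.266). Leaving out db/db 1 gave 4 partners higher and 1 lower.

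Of 8 genes of urate handling 1 rose and 1 fell, with a median of -0.04. Slc2a9, which encodes the urate transporter Glut9, rose by 0.86 (SE 0.17, limma adjusted p = 0.0168), and by 1.01 without db/db 1 (limma adjusted p = 0.000892). The gene that fell was Slc17a3, which is in the list of partners too.

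Of 8 genes of carnitine synthesis and use 0 passed by limma with all arrays, with a median of 0.06, and at an unadjusted p under 0.05 the counts were 2 higher and 1 lower. Crot, which encodes a peroxisomal carnitine acyltransferase, came nearest, at -0.37 (SE 0.10, limma adjusted p = 0.0555). Without db/db 1, 2 rose and 1 fell. Bbox1, which encodes the last enzyme of carnitine synthesis, was chosen after its values were seen. It was 6.78, 9.50, 9.98, 9.49 and 9.13 in db/db mice 1 to 5, against 7.22, 7.48, 7.39, 6.47 and 7.54 in db/m mice. As for Slc22a8 and Slc22a29, db/db 1 differed from the other db/db mice, here by lying within the db/m range. Its difference was 1.76 (SE 0.53, limma adjusted p = 0.0817) with all arrays and 2.31 (SE 0.23, limma adjusted p = 0.000453) without db/db 1.

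Of 15 transcription factor genes of the proximal tubule listed, 12 were measured. By limma 1 rose and 1 fell, with a median of 0.03. The xenobiotic receptor gene Nr1i2 rose by 0.85 (SE 0.13, limma adjusted p = 0.00598). Hnf4g, which averaged 4.71 in db/db and 6.07 in db/m, changed by -1.36 (SE 0.19, limma adjusted p = 0.00391). It was dim in db/db, where only 15.2% of genes had a lower mean. Hnf4a, which encodes a main regulator of proximal tubule genes, had a difference of -0.30 that did not pass (SE 0.13, limma adjusted p = 0.228) and was chosen after its values were seen.

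**Figure D5:**
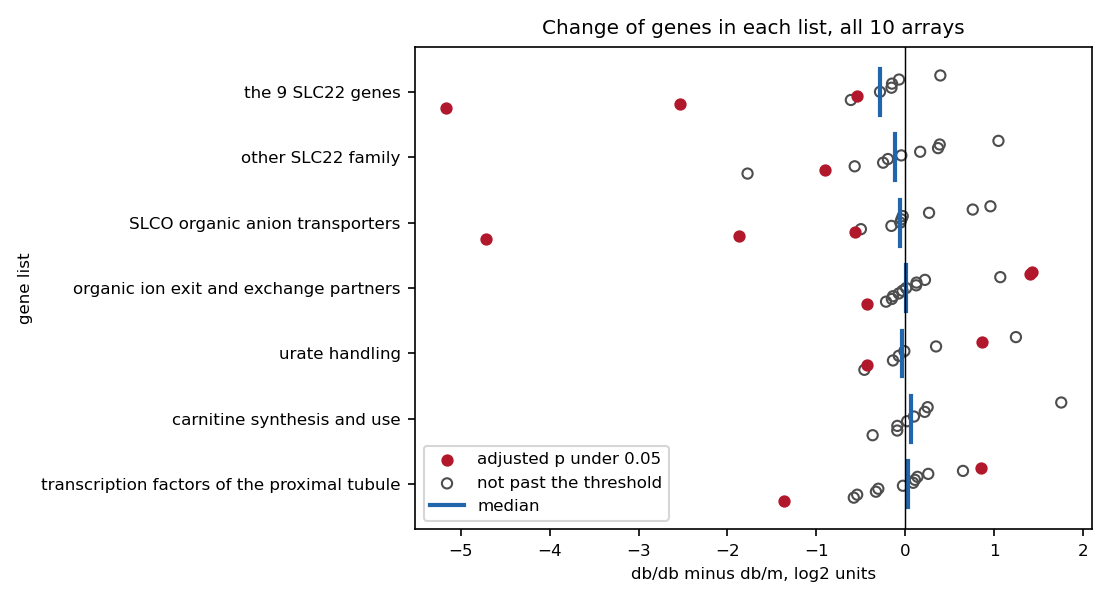
Difference in log2 level (db/db minus db/m) of each gene, for the 9 SLC22 genes and the related lists, with filled red points at a limma adjusted p under 0.05, open points above it and a blue line at the list median. The 3 filled SLC22 genes lie below 0, at -0.54, -2.54 and -5.17, while Abcc4 at 1.41 and Abcb1a at 1.42 lie above 0 among the partners.

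Markers of the cells that the tissue could hold were set beside these results. Of 10 markers of the first and second proximal segments (S1 and S2) 0 passed by limma with all arrays, also 0 at an unadjusted p under 0.05, and their median change was 0.03. The nearest was the amino acid transporter gene Slc7a7, at 0.28 (limma adjusted p = 0.258). The mean level of this list ran from 12.05 to 12.95 in db/db mice and from 12.57 to 12.77 in db/m mice, and 0 of its genes lay in the lowest 25% of genes. In db/db 1 it stood -0.64 from the db/m mean, and in the other db/db mice 0.18 to 0.26. Leaving out db/db 1 gave 1 marker higher and 0 lower, with a median of 0.18. That marker was the amino acid transporter gene Slc7a8, chosen after its values were seen, at 0.68 (limma adjusted p = 0.00187), against 0.30 with all arrays (limma adjusted p = 0.672).

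Slc22a7 and Slc22a19 are known in rodents from the last proximal segment (S3). Of 6 markers of this segment 3 fell and 0 rose by limma, beside 3.54% lower and 2.96% higher over all genes. The median of the 6 was -1.64, and at an unadjusted p under 0.05 their counts were 1 higher and 5 lower. The 3 that fell by limma were Slco1a1, the steroid hydroxylase gene Cyp7b1 at -2.61 (SE 0.48, limma adjusted p = 0.0123) and Acsm3. The last encodes an acyl-CoA synthetase and was at -1.55 (SE 0.13, limma adjusted p = 0.000338). The mean level of the list ran from 10.36 to 11.11 in db/db mice and from 12.15 to 12.72 in db/m mice. The list mean was thus lower in every db/db mouse, and it includes Slco1a1, which had the largest fall of the list. The markers that did not pass with all arrays are named after their values were seen. Slc5a1 went the other way, at 0.43 (limma adjusted p = 0.123). Slc7a13 was at -1.72 (limma adjusted p = 0.0624) and Slc6a18 at -0.36 (limma adjusted p = 0.167). Of the 6 markers 5 fell without db/db 1. The part of this segment's share or state in the values of Slc22a7 and Slc22a19 was not tested.

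Markers of other cells followed. Among podocyte markers 2 of 4 measured rose, Synpo by 0.46 (SE 0.08, limma adjusted p = 0.0107) and Wt1 by 0.45 (SE 0.09, limma adjusted p = 0.0196), and the mean level of the list ran from 9.11 to 9.58 in db/db mice and from 8.83 to 9.17 in db/m mice. None of the 4 lay in the lowest 25% of genes by mean. How far the cortex had been depleted of glomeruli was not tested. The call of Wt1 was lost without db/m 3 or 4 and with arrays centred on their medians (limma adjusted p = 0.0548). Of 6 injury markers the keratin genes Krt18 and Krt19 rose, by 1.17 (limma adjusted p = 0.0131) and 1.92 (limma adjusted p = 0.0261). The call of Krt19 was lost without db/db 2 or 3 or without db/m 1, 2, 3 or 4, where the adjusted p reached 0.0727. The mean level of this list ran from 7.75 to 12.22 in db/db mice and from 7.06 to 8.41 in db/m mice. Of 5 genes listed as thick limb markers 1 passed, Cldn10 at -0.23 (limma adjusted p = 0.0433), a call lost on leaving out any array but db/db 1. Of 5 listed as distal tubule markers 1 passed, Trpm6 at 0.60 (limma adjusted p = 0.0356). In whole cortex the cells in which these genes changed are not known. The call of Trpm6 was lost without db/db 3, 4 or 5, without db/m 1, 3, 4 or 5, and with arrays centred on their medians or quantile normalised again. For principal cells, intercalated cells, endothelium and leukocytes 0 of 5 markers each passed by limma, with 2, 0, 2 and 0 at an unadjusted p under 0.05. The nearest in each were Scnn1b at 0.57 (limma adjusted p = 0.135), Atp6v0d2 at 0.24 (limma adjusted p = 0.558), Pecam1 at 0.30 (limma adjusted p = 0.0546) and Itgam at 0.59 (limma adjusted p = 0.518). Leaving out db/db 1 gave more calls, as it did over all genes (12.8% against 6.51%, with 6.84% higher and 5.93% lower). Higher were 5 of 5 distal tubule, 4 of 4 podocyte, 3 of 5 principal cell, 1 of 5 intercalated cell and 1 of 5 endothelial markers. Lower were 1 of 5 thick limb and 1 of 5 leukocyte markers, and again 2 of 6 injury markers were higher. Scnn1b was then at 0.77 (limma adjusted p = 0.00156), Pecam1 at 0.25 (limma adjusted p = 0.0469) and Itgam at 0.07 (limma adjusted p = 0.724). The leukocyte list ran from 7.04 to 10.47 in db/db mice, the highest being db/db 1, and from 7.68 to 7.81 in db/m mice.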

How the data were processed

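RNA from glomerulus-depleted cortex of 10 mice was measured on 1 array per mouse. Per the submitters' processing notes, RMA was used to make the deposited values, which the authors gave on a log2 scale. The sources used here give neither the RMA version nor how probes were grouped by gene. The deposited table held 16539 rows: 64 Affymetrix control rows were left out, and 16475 gene rows were used as deposited, of which 695 were not listed in the supplied annotation and stay unnamed. Values lay between 2.50 and 14.53, array medians between 8.46 and 8.66. Precision is limited by the number of arrays. No 2 arrays were copies of each other.

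Groups followed the labels. The mice were separate animals, numbered within each group. limma 3.58.1 in R 4.3.3 (lmFit, eBayes without trend, two-sided, db/db minus db/m) was fitted to all genes, with Benjamini-Hochberg adjustment and a threshold of 0.05. The script was tested on simulated data. No fold change was computed between genes, and levels of different genes were used only to place a gene on the scale of the arrays.

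The members and lists were chosen with earlier results of these data known, and their counts are descriptions. Named were all 9 members. Of each list, genes past the threshold (up to 4 with the largest change) were named, or else the one with the lowest adjusted p. For each member that passed, the 3 genes with the nearest profile were named, SLC22 genes and genes without a symbol left out. Others are said to have been chosen after their values were seen. Alternatives were a replicate block, arrays centred on medians, repeated quantile normalisation, the lowest 25% of genes left out, array weights, a trended and robust eBayes, an adjusted p under 0.01 and each array left out in turn. For the lists and their named genes the alternatives were chosen after seeing the data. Python 3.11.15 with matplotlib 3.10.9 drew the figures.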

Additional observations from a re-analysis of the deposited data

Results flagged for a closer look

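In 116 groups of 5 mice, for the SLC22 genes and most other genes named, the highest or lowest mouse was tested for a gap to the others (Dixon's 95% critical value, 0.71 of the range). Chance gives about 5% of independent groups, and 20 were found, of which 16 were db/db 1. The groups share the same arrays, and some genes were chosen after their values were seen. The 20 can therefore not be weighed against the 5%.

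Among the 9 SLC22 genes db/db 1 stood apart for Slc22a8, at 9.99 against 12.05 to 12.41 in the other db/db mice, for Slc22a6, at 13.29 against 13.52 to 13.61, and for Slc22a12, at 13.00 against 13.26 to 13.34. In the wider family it was low for Slc22a17, at 7.80 against 8.69 to 8.93, for Slc22a18, at 11.82 against 12.63 to 12.91, for Slc22a22, at 11.08 against 12.42 to 12.73, and for Slc22a29, at 9.38 against 11.73 to 12.42. It was high for Slc22a26, at 8.59 against 6.04 to 6.68.

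Outside the family db/db 1 was high for Crot, at 12.46 against 12.01 to 12.10 in the other db/db mice, for the leukocyte gene Itgam, at 7.49 against 4.71 to 5.02, and for the keratin gene Krt18, at 12.95 against 11.69 to 11.97. It was low for the sodium channel gene Scnn1b, at 9.58 against 10.48 to 10.83, for Bbox1, at 6.78 against 9.13 to 9.98, for Slc47a1, at 12.89 against 13.36 to 13.49, for Pdzk1, at 13.07 against 13.31 to 13.38, and for Slc7a8, at 10.31 against 12.07 to 12.32. Among db/m mice, number 4 was low for Slc22a17, at 9.14 against 9.55 to 9.64 in the others, and for Slc22a21, at 6.99 against 7.52 to 7.60. The same mouse was high for Slc13a3, at 13.31 against 13.14 to 13.18. Mouse 5 of db/m was low for Hnf4g, at 5.83 against 6.10 to 6.18.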

How the results depend on the processing

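Of the 9 SLC22 genes 3 passed by limma, 4 with quantile normalisation repeated, with the lowest 25% of genes left out, or with eBayes with trend and robust settings, 5 with array weights, 1 (Slc22a7) at an adjusted p under 0.01, and 3 to 5 with each array left out in turn. The 9 genes and their alternatives were also tallied at the threshold of 0.05, leaving the setting of an adjusted p under 0.01 aside. There 132 results kept their direction and side of the threshold, and 7 newly passed (5 for Slc22a12 and 2 for Slc22a8). In this tally 1 no longer passed and 4 turned sign. Slc22a4 turned to 0.066 with array weights and to 0.007 without db/db 2, and Slc22a5 to 0.022 with array weights and 0.016 without db/db 5. Slc22a14 turned to 0.051 with array weights and 0.116 without db/db 1. With an array left out Slc22a4 lay between -0.161 and 0.007, Slc22a5 between -0.320 and 0.016 and Slc22a14 between -0.149 and 0.116. Slc13a3, at 0.011, turned to -0.057 with arrays centred on their medians and lay between -0.017 and 0.056 with an array left out. The cause was not tested. Over all genes 1072 passed, 488 higher and 584 lower, against 1114 with arrays centred on their medians, 363 higher and 751 lower. With quantile normalisation repeated 1091 passed, and with trended and robust eBayes 1094. With the lowest 25% of genes left out 1213 of 12356 genes passed. There were 2641 with array weights, 279 at an adjusted p under 0.01, and 490 to 2104 with an array left out: 490 without db/m 3, 576 without db/m 4, 644 without db/db 2, 674 without db/db 3, 683 without db/m 5, 684 without db/m 1 and 2104 without db/db 1. Of the 59 genes of the related lists 10 passed, 22 with array weights or without db/db 1, 6 at an adjusted p under 0.01, and 9 to 22 with an array left out. The mouse numbers do not pair the mice: deviations of same-numbered mice correlated at -0.095 to 0.006, and 0 of 5 numbers correlated best with their own. With the number as a replicate block 2 members (Slc22a7 and Slc22a19) passed, with Slc22a2 at an adjusted p of 0.0694, as did 393 of all genes and 6 of the related lists. Depth has no counterpart on these arrays, and 5 mice per group, 1 of them apart, limit what can be seen for small changes. Outside the 9 the block also ended the calls of Slco3a1, Slc17a3, Abcb1a, C8a, Krt18, Slc2a9, Mep1b, Arpp19, Synpo, Dusp19, Slc22a17, Krt19, Wt1, Trpm6 and Cldn10, with adjusted p-values from 0.0528 to 0.159, and Slc22a26 newly passed at 0.0411.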
